A study of Mus musculus with 18 samples.

Results

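The heat shock proteins and folding chaperones described here are the 81 genes, of 12205 in the authors' deposited table, whose symbol in that table belongs to the Hspa, Hspb, Hspd, Hspe, Hsph, Hsp90, Dnaja, Dnajb, Dnajc, Cct, Pdia or Bag series or is Calr, Canx, Tcp1 or P4hb. No measured value entered that choice. By their known location 51 were placed in the cytosol and nucleus, 20 in the endoplasmic reticulum (ER) and 7 in mitochondria, and 3 J proteins were left unassigned. The cells were primary mouse astrocytes, a glial cell type of the brain, homozygous for the R132H change of Eif2b5, which encodes the catalytic subunit of the translation initiation factor eIF2B. For the last 24 hr or 48 hr they received the inflammatory cytokines TNFα (20 ng/ml) and IL-1β (0.25 ng/ml), or they stayed untreated, and each culture was kept for 120 hr in all. RNA-seq of undigested lysate and Ribo-seq, which sequences the mRNA fragments that ribosomes shield from nuclease, gave 6 groups of 3 libraries from batches A, B and C. Every library of the series carried the homozygous mutation. The table also gives wild-type (WT) folds, whose libraries belong to none of these groups, so the WT columns served as the authors' own comparison.

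Each gene has 12 values: its change with treatment, as the log2 ratio of treated to untreated cells, in mRNA, in ribosome-protected fragments (RPF) and in ribosome density (RD, footprints relative to mRNA), at 24 hr and 48 hr, in mutant and in WT astrocytes. The table gives no values of single libraries, so single genes could not be tested, no error can be given and the depth behind a fold is unknown. A log2 fold of 1 or more in size was used to describe a gene as past the threshold. The 24 hr and 48 hr folds of a genotype share their untreated libraries. The table holds folds and no levels, so the astrocyte label could not be checked against marker levels; each of the 10 astrocyte markers looked up had a row, as did 7 of 7 markers of fibroblasts and mural cells, 6 of 10 of the oligodendrocyte lineage, 5 of 7 of neurons, 4 of 6 of endothelium and 3 of 9 of microglia and macrophages. In mutant mRNA at 24 hr 1 of the 10 astrocyte markers was at or above 1 (7.73% of all genes) and 3 were at or below -1 (7.27%). Marker folds in mutant mRNA, by the authors' deposited table, ran from -2.16 to 1.99 at 24 hr and -2.50 to 1.90 at 48 hr over the astrocyte markers, from -2.81 to 4.60 and -3.46 to 5.95 over those of fibroblasts and mural cells, and from 0.82 to 1.89 and 1.18 to 6.71 over those of microglia and macrophages. Over the endothelial markers the authors' deposited table ran from -3.29 to 1.86 and -3.35 to 1.34, over the neuronal ones from -2.59 to 0.98 and -3.25 to 0.99, and over those of the oligodendrocyte lineage from -1.17 to 1.73 and -0.91 to 2.35. The part of these shifts in the chaperone folds was not tested. In such bulk lysates fewer cells of a type and less RNA per cell cannot be told apart.

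Chaperones bind unfolded or partly folded proteins and help them reach or keep their native shape. HSP70 proteins work in cycles of ATP hydrolysis that J proteins start and that nucleotide exchange factors, such as the HSP110 and BAG proteins, complete. HSP90 acts on late folding intermediates, TRiC encloses actin and tubulin, and small heat shock proteins hold unfolded chains without ATP. Secreted and membrane proteins fold in the ER with the HSP70 protein BiP, the lectins calnexin and calreticulin, and the protein disulfide isomerases. Genes of the ER chaperones respond to the unfolded protein response through a promoter sequence called the ER stress element, and genes of the cytosolic and mitochondrial chaperones respond to the factor HSF1 through the heat shock element.

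Those elements were looked for in RefSeq promoter windows on GRCm38, which run from 250 bases before to 50 bases after a gene's start and were available for 69 of the 81 members. Hspa8, Hspa9, Hsp90aa1 and Hsp90ab1 were among the members without a window and were not searched. The ER stress element, searched on both strands as CCAAT and CCACG with 9 bases of any kind between them, was found for Hspa5, Hsp90b1, Calr, Canx, Dnajc3 and Pdia6, and for 37 of 27025 genes with a window, or 0.137%. The stretches below show how the element sits in the promoters of these 6 ER chaperone genes, with the element in capitals; in Calr it reads on the opposite strand, as CGTGG at the left and ATTGG at the right. The Hspa5 stretch lies at chr2:34771995-34772073 on the plus strand, that of Hsp90b1 at chr10:86705608-86705686 on the minus strand, that of Calr at chr8:84847045-84847123 on the minus strand, that of Canx at chr11:50325770-50325848 on the minus strand, that of Dnajc3 at chr14:118937797-118937875 on the plus strand and that of Pdia6 at chr12:17266461-17266539 on the plus strand.
Hspa5: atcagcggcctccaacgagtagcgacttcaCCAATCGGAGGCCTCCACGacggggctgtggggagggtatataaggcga
Hsp90b1: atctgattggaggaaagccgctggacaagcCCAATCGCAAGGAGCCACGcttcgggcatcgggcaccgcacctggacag
Calr: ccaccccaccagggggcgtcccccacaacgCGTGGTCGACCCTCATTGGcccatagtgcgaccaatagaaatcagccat
Canx: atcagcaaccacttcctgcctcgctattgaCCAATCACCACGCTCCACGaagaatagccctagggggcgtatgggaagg
Dnajc3: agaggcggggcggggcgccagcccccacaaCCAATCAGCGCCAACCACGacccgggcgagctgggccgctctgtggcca
Pdia6: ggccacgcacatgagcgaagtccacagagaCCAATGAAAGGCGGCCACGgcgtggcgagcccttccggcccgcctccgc

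Hsp90b1 held 2 copies of the element, of which the one farther from the start is shown. A related form, ATTGG and CCACG with 1 base between them, was found for Dnajb11 and for 12 of all genes with a window, or 0.0444%. The heat shock element, searched as GAA, TTC and GAA with 2 bases between neighbours or as TTC, GAA and TTC in the same spacing, was found for Dnajb6, Hspd1, Hspe1 and Hsph1, and for 179 genes, or 0.662%. Only these exact letters and spacings were searched, so a member without a match is not shown to lack an element of another form. The matches of Dnajb11 and Hsph1 lay after the start of the gene. Hspd1 and Hspe1, which encode the mitochondrial folding chamber HSP60 and its lid HSP10, are transcribed away from each other, and both windows contained the same copies. The Hspe1 stretch lies at chr1:55088034-55088106 on the plus strand and that of Dnajb6, a cytosolic J protein, at chr5:29735822-29735894 on the plus strand. The capitals again mark the element.
Hspe1: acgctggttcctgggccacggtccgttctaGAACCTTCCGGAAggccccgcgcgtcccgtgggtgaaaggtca
Dnajb6: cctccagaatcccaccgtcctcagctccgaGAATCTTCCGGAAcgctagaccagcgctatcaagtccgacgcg

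The 6 genes with the ER stress element had a median mRNA fold of 0.19 at 24 hr and -0.0019 at 48 hr in mutant cells, and the other 63 members with a window had 0.11 and 0.05. In WT cells the same 6 genes had median mRNA folds of 0.49 at 24 hr and 0.34 at 48 hr, and the other 63 had 0.12 and 0.13. All 6 are lumenal ER genes. The 14 lumenal ER genes described further on had the same rounded WT medians, 0.49 and 0.34, and higher mutant medians than the 6. A part of the element in these folds was not tested. The 4 genes with the heat shock element had mutant mRNA medians of 0.25 and 0.16, and the other 65 members with a window had 0.11 and 0.04. In mutant RPF the medians were 0.22 and 0.24 with the heat shock element and 0.06 and -0.05 without it. WT mRNA medians were 0.36 and 0.30 with this element and 0.16 and 0.17 without it. WT RPF medians were -0.08 and 0.06 with it and 0.08 and 0.06 without it, so the mutant RPF gap was not seen there. A part of the heat shock element in these folds was not tested. The mutant mRNA folds of the 4 genes ran at 24 hr from -0.49 for Hsph1 to 0.52 for Hspe1. A match describes the letters of a window and no binding was measured.

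Taken over all 81 members, the cytokines left most chaperone folds of the mutant small. All 6 mutant folds were under 0.5 in size for 53 members (65.4%), against 46.7% of all genes, and all 6 WT folds for 28 members (34.6%), against 37.1% of all genes. In mutant mRNA at 24 hr, 1 of 81 members was at or above 1, with a background of 7.73% of all genes, and none was as low as -1, which 7.27% of all genes were. At 48 hr no member was at or above 1 in mutant mRNA (8.96% of all genes) and 1 was at or below -1 (8.24%). In mutant RPF, 1 member was at or above 1 at 24 hr (7.32% of all genes) and 3 were at or below -1 (7.9%), while at 48 hr none was at or above 1 (7.43%) and 2 were at or below -1 (8.29%). No member reached 1 in size in mutant RD at 24 hr (1.7% of all genes) or at 48 hr (2%). In WT cells 3 members were past the threshold in mRNA at 24 hr (17.1% of all genes), 5 at 48 hr (18.4%), 3 in RPF at 24 hr (16.6%), 4 at 48 hr (16.8%) and none in RD at 24 hr (3.11%) or 48 hr (4.56%). So fewer members passed the threshold than the share of all genes in each of these columns.

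**Figure D1:**
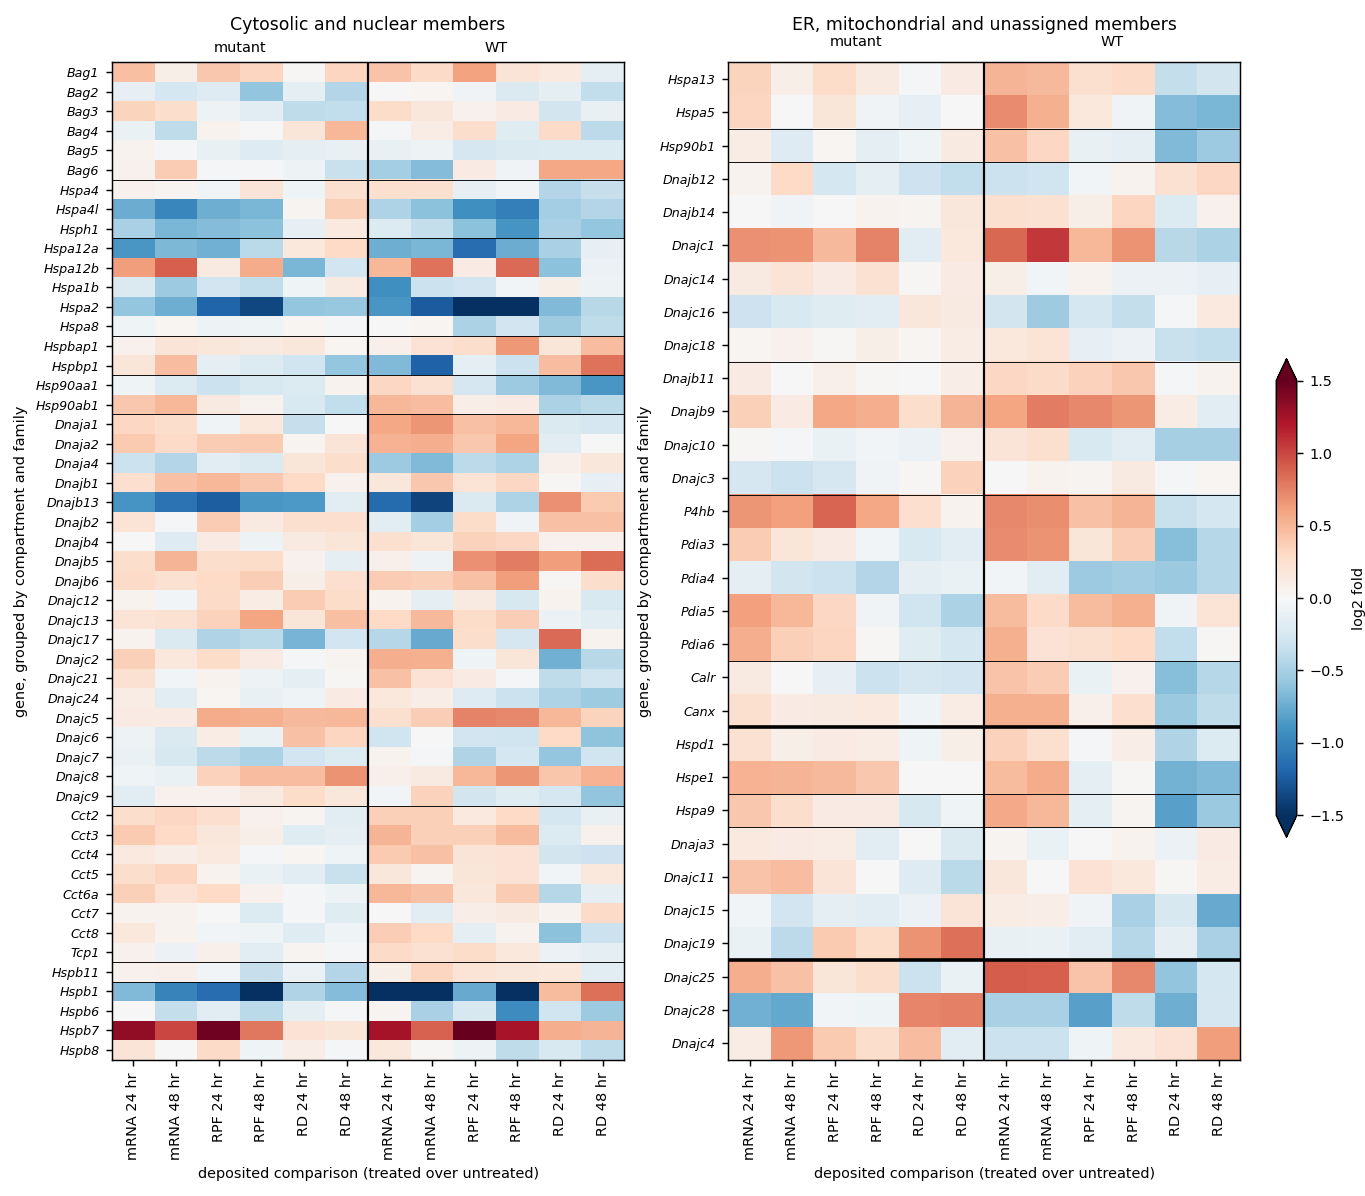
Heat map of log2 folds (treated over untreated) for the 81 chaperone genes (rows, grouped by compartment and family) in 12 deposited comparisons (columns; mutant to the left of the black line, WT to the right). Red is higher and blue lower in treated cells, and most fields on the mutant side are pale, with Hspb7 red in mRNA and RPF and Hspb1, Hspa2 and Dnajb13 blue.

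The 4 members past the threshold in mutant mRNA or RPF were Hspb7, Hspb1, Hspa2 and Dnajb13, and 2 of them are small heat shock proteins. Hspb7 (ENSMUSG00000006221, chromosome 4, 141420779 to 141425311) encodes a small heat shock protein best known from heart muscle. Its mRNA folds in the authors' deposited table were 1.33 at 24 hr and 0.996 at 48 hr in mutant cells, against 1.25 and 0.88 in WT cells. The RPF folds of Hspb7 in the authors' deposited table were 1.46 and 0.79 in mutant cells, against 1.67 and 1.24 in WT cells. Hspb7 was therefore the highest member in mutant mRNA and RPF at both times, and lower at 48 hr than at 24 hr in both measures and both genotypes.

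Hspb1 (ENSMUSG00000004951, chromosome 5, 135887919 to 135889563), encoding the ATP-independent chaperone HSP27, moved the other way. Its mRNA folds in the authors' deposited table were -0.66 at 24 hr and -0.998 at 48 hr in mutant cells, against -1.55 and -2.46 in WT cells. The RPF folds of Hspb1 in the authors' deposited table were -1.14 and -1.72 in mutant cells, against -0.76 and -1.51 in WT cells. In RD the authors' deposited table gave Hspb1 -0.46 and -0.65 in mutant cells, against 0.47 and 0.83 in WT cells. The RPF folds of Hspb1 were thus lower than its mRNA folds in mutant cells and less low than its mRNA folds in WT cells. The Hspb1 transcript has a GC content of 60.7%, the highest of the members, and the genotype difference tracked GC content as described further on.

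Hspb8, which works with Bag3 in selective autophagy, stood near 0 in the mutant, at 0.20 and 0.01 in mRNA and 0.29 and -0.07 in RPF in the authors' deposited table. Hspb6 was near 0 in mutant mRNA at 24 hr and at -0.36 at 48 hr in the authors' deposited table, with RPF folds of -0.16 and -0.41. In all 4 small heat shock proteins the mutant folds at 48 hr were below those at 24 hr, in mRNA (median difference -0.34) and in RPF (-0.47). The WT differences were negative in all 4 as well, with medians of -0.45 in mRNA and -0.57 in RPF. Most of the members were also lower at 48 hr in mutant mRNA and RPF, as given further on. Without the shares of all genes these counts do not set the 4 genes apart. Cryab, the small heat shock protein αB-crystallin whose symbol lies outside the series named above, stood at -0.94 and -1.06 in mutant mRNA in the authors' deposited table, and at -1.43 and -1.82 in WT mRNA. Hspb11, a protein of intraflagellar transport despite its symbol, stood at 0.06 and 0.08 in mutant mRNA in the authors' deposited table.

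Among the cytosolic HSP70 genes, Hspa2 (ENSMUSG00000059970, chromosome 12, 76404176 to 76406938) had the lowest footprint folds. Hspa2 encodes an HSP70 protein best known from the testis. The mRNA folds of Hspa2 in the authors' deposited table were -0.58 at 24 hr and -0.73 at 48 hr in mutant cells, against -0.88 and -1.25 in WT cells. Its RPF folds in the authors' deposited table were -1.20 and -1.37 in mutant cells, against -1.49 and -1.65 in WT cells. The RD folds of Hspa2 were -0.58 and -0.56 in mutant cells, against -0.67 and -0.42 in WT cells, in the authors' deposited table. All 12 values were below 0, with RPF folds lower than mRNA folds in each genotype.

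Hspa8, the constitutive HSC70 and a standing part of the cytosolic chaperone pool, lay between -0.07 and 0.03 in all 6 mutant columns of the authors' deposited table. In WT cells the authors' deposited table gave Hspa8 0.00 and 0.03 in mRNA, -0.47 and -0.29 in RPF and -0.54 and -0.38 in RD. Hspa1b, a heat-inducible HSP70 gene nearly identical in sequence to Hspa1a, so that its reads are hard to assign, stood at -0.22 and -0.55 in mutant mRNA, against -0.92 and -0.32 in WT mRNA, in the authors' deposited table. Hspa12a and Hspa12b, distant relatives of HSP70, differed in direction. Hspa12a mRNA stood at -0.87 and -0.67 in mutant cells, against -0.74 and -0.68 in WT cells, in the authors' deposited table. Hspa12b mRNA stood at 0.63 and 0.89 in mutant cells, against 0.50 and 0.82 in WT cells, in the authors' deposited table, while its mutant RD fold at 24 hr was -0.69.

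The HSP110 genes Hspa4l and Hsph1, nucleotide exchange factors of HSP70, were lower in treated cells, and Hspa4 of the same family was near 0. Hspa4l mRNA folds in the authors' deposited table were -0.74 and -0.98 in mutant cells, against -0.46 and -0.62 in WT cells. The RPF folds of Hspa4l were -0.73 and -0.69 in mutant cells, against -0.92 and -1.03 in WT cells, in the authors' deposited table. Hsph1 mRNA stood at -0.49 and -0.69 in mutant cells, against -0.20 and -0.36 in WT cells, in the authors' deposited table. Hsph1 RPF stood at -0.65 and -0.61 in mutant cells, against -0.62 and -0.89 in WT cells, in the authors' deposited table. For both genes the mRNA folds as deposited were thus lower in mutant than in WT cells at each time, and the RPF folds at 48 hr were less low in the mutant. With the GC trend subtracted the mRNA difference between genotypes was -0.09 and 0.03 for Hspa4l and -0.18 and -0.14 for Hsph1, so that of Hspa4l turned at 48 hr.

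The 2 cytosolic HSP90 genes parted in mRNA. Hsp90ab1, the constitutive form, had mRNA folds of 0.41 and 0.50 in mutant cells, against 0.49 and 0.46 in WT cells, in the authors' deposited table. Hsp90aa1, the inducible form, had -0.07 and -0.20 in mutant cells, against 0.31 and 0.22 in WT cells, in the authors' deposited table. Footprints of both were near 0 or lower, and in mutant RPF the authors' deposited table gave 0.14 and 0.05 for Hsp90ab1 and -0.32 and -0.23 for Hsp90aa1. The co-chaperone Stip1, which passes clients between HSP70 and HSP90, stood at 0.86 and 0.68 in mutant mRNA, and Cdc37, the kinase-specific HSP90 partner, at 0.61 and 0.81, in the authors' deposited table. Of 22 other cytosolic co-chaperone and HSF genes, none was at or above 1 in mutant mRNA or RPF at either time. Of all genes, 7.73% and 8.96% were so in mRNA at 24 hr and 48 hr, and 7.32% and 7.43% in RPF. At or below -1 there was 1 of the 22, Cryab, in mutant mRNA at 48 hr (8.24% of all genes) and in mutant RPF at both times (7.9% and 8.29%).

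**Figure D2:**
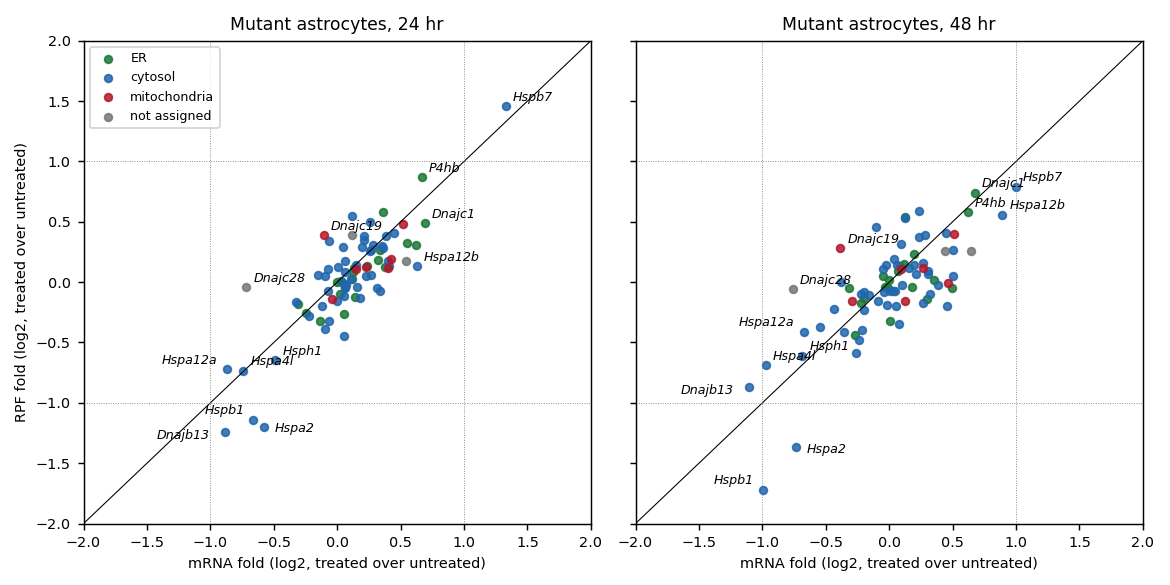
Mutant RPF fold (vertical axis, log2) against mutant mRNA fold (horizontal axis, log2) for the 81 chaperone genes at 24 hr (left) and 48 hr (right), coloured by compartment, with the line of equality and dotted lines at the threshold of 1. Most genes sit within 0.5 of 0 on both axes, Hspb7 lies farthest to the upper right, and Hspb1 and Hspa2 lie below the line of equality.

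J proteins deliver clients to HSP70 and start its ATP hydrolysis. The 20 cytosolic and nuclear J proteins had a median mutant mRNA fold of 0.11 at 24 hr and -0.03 at 48 hr, and a median mutant RPF fold of 0.20 and 0.13. For all genes the medians were 0.03 and 0.04 in mutant mRNA and 0.01 and 0.01 in mutant RPF. Dnajb13 (ENSMUSG00000030708, chromosome 7, 100501716 to 100514960), a J protein of the radial spokes of motile cilia, was the lowest member in mutant mRNA at both times. Dnajb13 mRNA folds were -0.88 and -1.11 in mutant cells, against -1.15 and -1.39 in WT cells, in the authors' deposited table. Its RPF folds were -1.24 and -0.87 in mutant cells, against -0.21 and -0.47 in WT cells, in the authors' deposited table. The mRNA folds of Dnajb13 were therefore low in both genotypes, and its RPF folds were lower in the mutant.

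For several of the J proteins named next the mutant RPF fold was above the mutant mRNA fold, and for others, such as Dnajc17, it was below. Dnajc8, known from pre-mRNA splicing, stood at -0.07 and -0.10 in mRNA but at 0.34 and 0.46 in RPF and 0.47 and 0.67 in RD in mutant cells in the authors' deposited table. WT cells were alike, with Dnajc8 at 0.42 and 0.52 in RD in the authors' deposited table. Dnajc5, the cysteine string protein of vesicle release, had mutant RD folds of 0.49 at both times, against 0.50 and 0.34 in WT cells, in the authors' deposited table. Dnajc13, an endosomal J protein, had mutant RPF folds of 0.35 and 0.59, against 0.27 and 0.37 in WT cells, in the authors' deposited table. Dnajc6, the auxilin that uncoats clathrin vesicles, had mutant RD folds of 0.44 and 0.32, against 0.30 and -0.61 in WT cells, in the authors' deposited table. Dnajb1, the stress-induced HSP40, had mutant mRNA folds of 0.26 and 0.44, against 0.17 and 0.40 in WT cells, in the authors' deposited table, and mutant RPF folds of 0.50 and 0.41. Dnajb5 was at 0.27 and 0.50 in mutant mRNA, against 0.08 and -0.07 in WT mRNA, in the authors' deposited table. Dnajc17, a nuclear J protein with an RNA-binding motif, had mutant RD folds of -0.70 and -0.29, against 0.85 and 0.05 in WT cells, in the authors' deposited table. Genotypes were thus far apart for Dnajc17 at 24 hr and close for Dnajc8 and Dnajc5.

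TRiC, the double-ring chaperonin that folds actin and tubulin, was represented by its 8 subunit genes Tcp1, Cct2, Cct3, Cct4, Cct5, Cct6a, Cct7 and Cct8, whose folds stayed close together. Their mutant mRNA folds at 24 hr were all above 0, between 0.05 (Cct7) and 0.40 (Cct3) with a median of 0.21. At 48 hr 7 of 8 were above 0, with a median of 0.16. WT mRNA medians were 0.36 and 0.33. The footprint folds of the 8 genes differed between the genotypes at 48 hr. The median RPF fold of the 8 genes was 0.11 at 24 hr and -0.04 at 48 hr in mutant cells, against 0.17 and 0.22 in WT cells. At 48 hr each of the 8 mutant RPF folds was below the WT fold, by a median of -0.32 with a range of -0.38 (Cct3) to -0.13 (Cct8), where the median over all genes was 0.00. The mutant RPF folds were also lower at 48 hr than at 24 hr in all 8 genes (median difference -0.18), whereas 7 of 8 were higher at 48 hr in WT cells (0.08). For the 7 subunit genes with a GC value, the RPF difference between genotypes after subtraction of the GC trend had a median of -0.29 at 48 hr and was negative in all 7. Subunits of 1 complex are not replicates, and no replicate value bears on these differences. Outside TRiC the RPF difference at 48 hr was also negative for some members, such as Pdia5 (-0.59) and Pdia3 (-0.40), and positive for others, such as Dnajc14 (0.32). Shares of all genes with a lower mutant RPF fold are not given here, so the counts do not set TRiC apart.

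BAG proteins, which release ADP from HSP70 and couple it to other pathways, stayed mostly within 0.5 of 0 in the mutant. Bag1 had mRNA folds of 0.45 and 0.09 in mutant cells, against 0.42 and 0.28 in WT cells, in the authors' deposited table. Bag3, the stress-induced partner of Hspb8, had 0.34 and 0.27 in mutant cells, against 0.27 and 0.17 in WT cells, in the authors' deposited table, and its mutant RD folds were -0.38 and -0.37. Bag4 had mutant RD folds of 0.18 and 0.50, against 0.29 and -0.39 in WT cells, in the authors' deposited table. Bag2, an inhibitor of the ubiquitin ligase CHIP, reached -0.59 in mutant RPF at 48 hr, against -0.22 in WT RPF, in the authors' deposited table. Bag6, which escorts tail-anchored proteins to the ER, had mRNA folds of 0.07 and 0.38 in mutant cells, against -0.51 and -0.65 in WT cells, in the authors' deposited table. Hspbp1, another nucleotide exchange factor, had 0.18 and 0.46 in mutant cells, against -0.66 and -1.22 in WT cells, in the authors' deposited table. As deposited, Bag6 and Hspbp1 thus stood on opposite sides of 0 in the 2 genotypes, and their transcripts are both GC-rich, at 59.9% each. With the GC trend described further on subtracted, Bag6 mRNA stood at -0.04 and -0.0005 in mutant cells, against -0.15 and -0.17 in WT cells. Hspbp1 mRNA then stood at 0.07 and 0.08, against -0.29 and -0.74, so only Hspbp1 kept the split.

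In the ER, the 14 genes whose proteins act in the lumen (calnexin, anchored in the membrane, included) had mRNA folds that were mildly positive at 24 hr. Their median mutant mRNA fold was 0.28 at 24 hr, with 12 of 14 above 0, and 0.04 at 48 hr, with 8 of 14 above 0. The WT medians were 0.49 and 0.34, with 13 of 14 above 0 at each time. Each of the 14 mutant mRNA folds was lower at 48 hr than at 24 hr, by a median of -0.13 and between -0.33 (Hspa5) and -0.05 (P4hb), where the median over all genes was 0.00. In WT cells the same difference had a median of -0.03, and 3 of 14 were above 0. Shares of all genes above 0 are not given for these folds and differences, so the counts do not set the lumenal genes apart. With the GC trend described further on subtracted, the mutant mRNA folds of Dnajc10 (0.01 to 0.04) and Dnajc3 (-0.24 to -0.20) were higher at 48 hr. Those of the other lumenal genes stayed lower at 48 hr. None of the 14 passed the threshold in any of the 12 columns. Of all genes, 7.27% to 8.96% passed it in a given direction in mutant mRNA and RPF, and 1.7% and 2% in mutant RD. In WT cells 16.6% to 18.4% of all genes passed it in mRNA and RPF, and 3.11% and 4.56% in RD.

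Hspa5, encoding BiP (ENSMUSG00000026864, chromosome 2, 34771970 to 34777547), whose promoter stretch is printed above, had mRNA folds of 0.32 and -0.01 in mutant cells, against 0.71 and 0.53 in WT cells, in the authors' deposited table. Its RPF folds were 0.18 and -0.05 in mutant cells, against 0.15 and -0.05 in WT cells, in the authors' deposited table. The RPF folds of BiP were thus alike in the genotypes while its mRNA folds were higher in WT. In RD the authors' deposited table gave Hspa5 -0.12 and 0.00 in mutant cells, against -0.65 and -0.69 in WT cells. Hsp90b1, the ER form of HSP90 (GRP94), had mRNA folds of 0.12 and -0.20 in mutant cells, against 0.44 and 0.31 in WT cells, in the authors' deposited table, and RD folds of -0.06 and 0.14, against -0.66 and -0.54. Hspa13, a further HSP70 protein of the secretory pathway, had mRNA folds of 0.33 and 0.08 in mutant cells, against 0.51 and 0.48 in WT cells, in the authors' deposited table.

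The lectin chaperones, which bind glycoproteins, followed the same layout. Calr mRNA stood at 0.14 and 0.00 in mutant cells, against 0.43 and 0.38 in WT cells, in the authors' deposited table. Calr RPF stood at -0.13 and -0.32 in mutant cells, against -0.10 and 0.06 in WT cells, in the authors' deposited table. Canx mRNA stood at 0.23 and 0.12 in mutant cells, against 0.54 and 0.53 in WT cells, in the authors' deposited table. For both, the mRNA folds were lower in mutant cells at each time.

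The disulfide isomerases form and rearrange disulfide bonds, and P4hb, the founding member, was the highest of the lumenal genes in mutant mRNA and RPF. P4hb mRNA stood at 0.67 and 0.62 in mutant cells, against 0.72 and 0.69 in WT cells, in the authors' deposited table. P4hb RPF stood at 0.87 and 0.58 in mutant cells, against 0.44 and 0.51 in WT cells, in the authors' deposited table. At 24 hr its footprints were therefore farther above 0 in the mutant while its mRNA was close to the WT value. Pdia6 mRNA stood at 0.55 and 0.35 in mutant cells, against 0.54 and 0.22 in WT cells, in the authors' deposited table, and Pdia5 mRNA at 0.62 and 0.49, against 0.47 and 0.28. Pdia3, the partner of the lectin chaperones, had mRNA folds of 0.38 and 0.18 in mutant cells, against 0.70 and 0.67 in WT cells, in the authors' deposited table. Pdia4 was the lowest in RPF, at -0.32 and -0.44 in mutant cells, against -0.54 and -0.52 in WT cells, in the authors' deposited table. All 5 isomerases were lower in mutant RPF at 48 hr than at 24 hr, by a median of -0.29, and higher in WT RPF, by 0.07. Most of the members moved in these same directions, as given further on. Without the shares of all genes these counts do not set the isomerases apart.

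Of the lumenal J proteins, Dnajb9 (ERdj4), a partner of BiP in ER-associated degradation, had mRNA folds of 0.36 and 0.13 in mutant cells, against 0.60 and 0.76 in WT cells, in the authors' deposited table. Dnajb9 RPF stood at 0.58 and 0.54 in mutant cells, against 0.72 and 0.66 in WT cells, in the authors' deposited table, and its mutant RD folds of 0.27 and 0.51 were the highest of the ER genes. Dnajc3 (p58IPK), a co-chaperone of BiP also known as an inhibitor of eIF2α kinases, had mRNA folds of -0.25 and -0.32 in mutant cells, against 0.00 and 0.05 in WT cells, in the authors' deposited table. Dnajc3 was the lowest lumenal gene in mutant mRNA at both times, and it carries the ER stress element shown above. Dnajb11 and Dnajc10 stayed between -0.10 and 0.12 in the 6 mutant columns of the authors' deposited table.

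The 6 J proteins of the ER membrane were led by Dnajc1, with mRNA folds of 0.69 and 0.68 in mutant cells, against 0.87 and 1.06 in WT cells, in the authors' deposited table. Dnajc1 RPF stood at 0.49 and 0.74 in mutant cells, against 0.50 and 0.67 in WT cells, in the authors' deposited table. Dnajc16 had the lowest mutant mRNA fold of the 6 at each time, -0.31 and -0.22, against -0.28 and -0.53 in WT cells, in the authors' deposited table. Dnajb12, which takes part in ER-associated degradation, had mRNA folds of 0.06 and 0.30 in mutant cells, against -0.32 and -0.30 in WT cells, in the authors' deposited table, and mutant RD folds of -0.31 and -0.37, against 0.23 and 0.31. Dnajb14, Dnajc14 and Dnajc18 lay between -0.05 and 0.23 in the 6 mutant columns of the authors' deposited table.

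Of 33 other genes of ER folding and quality control with a row, 2 were at or above 1 in mutant mRNA at 24 hr (7.73% of all genes) and 1 at 48 hr (8.96%), and none was at or below -1 (7.27% and 8.24%). These were Ern1, encoding the stress sensor IRE1α, at 1.06 and 1.07 in mutant cells, against 1.09 and 1.17 in WT cells, in the authors' deposited table, and Ddit3, encoding CHOP, at 1.17 and 0.86, against 1.05 and 0.61. In mutant RPF the authors' deposited table placed Ern1 at 1.45 at both times and Sec61b, a translocon subunit, at 1.06 and 0.62. The medians of the 33 genes were 0.25 and 0.22 in mutant mRNA, against 0.23 and 0.24 in WT mRNA. Of the other regulators, Atf4 stood at 0.85 and 0.55 in mutant mRNA, against 1.05 and 0.84 in WT mRNA, in the authors' deposited table. Xbp1 mRNA stood at 0.41 and 0.40 in mutant cells, against 0.69 and 0.77 in WT cells. Atf6 mRNA stood at 0.05 and -0.23 in mutant cells, against 0.07 and -0.14 in WT cells.

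In mitochondria, the mRNAs of the main folding machines were mildly higher in treated cells. Hspe1 (HSP10) mRNA stood at 0.52 and 0.51 in mutant cells, against 0.48 and 0.56 in WT cells, in the authors' deposited table. Hspe1 RPF stood at 0.48 and 0.40 in mutant cells, against -0.13 and 0.02 in WT cells, in the authors' deposited table. Hspe1 was therefore alike in mRNA in the genotypes, while its footprints were above 0 in the mutant and near 0 in WT. Hspd1 (HSP60), from the shared promoter, had mRNA folds of 0.22 and 0.09 in mutant cells, against 0.34 and 0.25 in WT cells, in the authors' deposited table. Hspa9 (mortalin), the mitochondrial HSP70 that pulls in imported proteins, had mRNA folds of 0.40 and 0.27 in mutant cells, against 0.57 and 0.49 in WT cells, in the authors' deposited table. Hspa9 RPF stood at 0.12 at both times in mutant cells, against -0.14 and 0.04 in WT cells, in the authors' deposited table.

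The mitochondrial J proteins spread more. Dnajc19, of the import motor, had mRNA folds of -0.11 and -0.39 and RPF folds of 0.39 and 0.28 in mutant cells in the authors' deposited table. In WT cells the authors' deposited table gave Dnajc19 mRNA folds of -0.11 and -0.10 and RPF folds of -0.17 and -0.43. Dnajc19 footprints thus lay on opposite sides of 0 in the genotypes. Dnajc11, linked to cristae structure, had mRNA folds of 0.43 and 0.46 in mutant cells, against 0.17 and 0.01 in WT cells, in the authors' deposited table. Dnajc15 mRNA stood at -0.04 and -0.29 in mutant cells, against 0.12 and 0.10 in WT cells, in the authors' deposited table, and Dnaja3 (Tid1) at 0.15 and 0.13, against 0.04 and -0.10. Of 11 other genes of mitochondrial folding and proteolysis, none was past the threshold in mutant mRNA, RPF or RD at either time, and their median mutant mRNA folds were 0.13 and 0.15. Of all genes, 7.27% to 8.96% passed it in a given direction in mutant mRNA and RPF, and 1.7% and 2% in mutant RD.

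Of the 3 J proteins left unassigned, Dnajc28 had mRNA folds of -0.72 and -0.76 but RPF folds of -0.04 and -0.06 in mutant cells in the authors' deposited table. WT cells had -0.48 at both times in Dnajc28 mRNA and -0.82 and -0.38 in RPF in the authors' deposited table. Its RD folds were therefore 0.74 and 0.76 in mutant cells, against -0.73 and -0.25 in WT cells, in the authors' deposited table. Dnajc25 mRNA stood at 0.54 and 0.44 in mutant cells, against 0.90 and 0.89 in WT cells, in the authors' deposited table, and Dnajc4 mRNA at 0.11 and 0.65, against -0.33 and -0.32.

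**Figure D3:**
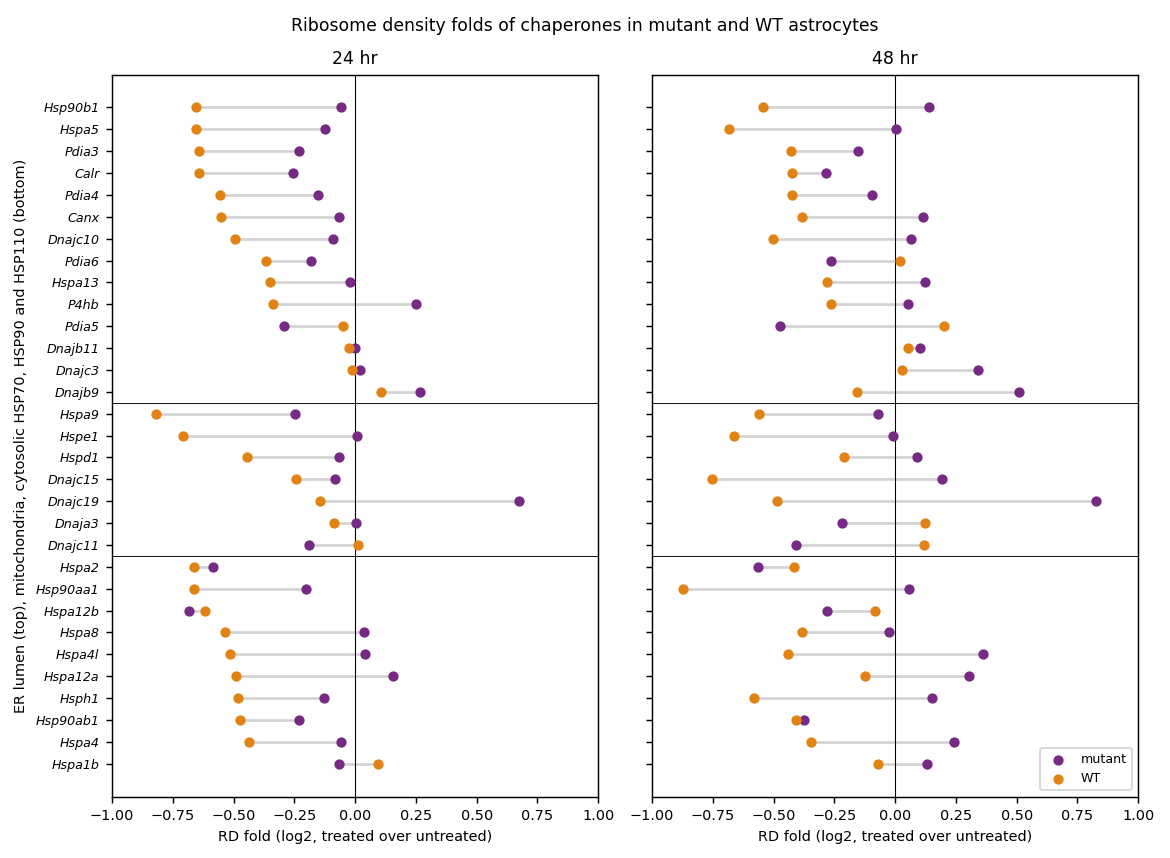
RD fold (horizontal axis, log2, treated over untreated) at 24 hr (left) and 48 hr (right) in mutant (purple) and WT (orange) astrocytes for 14 genes of the ER lumen, 7 mitochondrial genes and the cytosolic HSP70, HSP90 and HSP110 genes, with a grey line joining the genotypes. WT points lie mostly left of 0, down to -0.82 for Hspa9 at 24 hr and -0.87 for Hsp90aa1 at 48 hr, and mutant points mostly near 0.

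Ribosome density of the major chaperones also differed between the genotypes. The median RD fold of the 14 lumenal ER genes was -0.08 at 24 hr and 0.06 at 48 hr in mutant cells, against -0.43 and -0.33 in WT cells. For the 7 mitochondrial genes the medians were -0.07 and -0.01 in mutant cells, against -0.24 and -0.48 in WT cells, and for the 51 cytosolic genes -0.02 and -0.01, against -0.15 and -0.14. Over all genes they were 0.01 and 0.04 in mutant cells, against -0.03 and -0.05 in WT cells. The mutant RD fold exceeded the WT fold in 13 of 14 lumenal genes at 24 hr and in 12 of 14 at 48 hr, with median differences of 0.39 and 0.32. With the trend of the folds against the GC content of the transcript subtracted, those medians were 0.14 and -0.065, so the direction at 48 hr turned. The 3 HSP110 genes had differences of 0.38 and 0.73 (medians), positive in 3 of 3 at each time. Over all 2998 genes with a GC content at or under 45.7%, the lower quartile, the median RD difference was 0.30 and 0.51. The shares of all genes with a higher mutant RD fold are not given here, so the counts do not set these genes apart. The 8 TRiC genes had RD differences with medians of 0.21 and 0.01.

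Single genes show the size of this gap in the folds as deposited. Hsp90aa1 RD stood at -0.20 and 0.06 in mutant cells, against -0.66 and -0.87 in WT cells, in the authors' deposited table. Hspa9 RD stood at -0.25 and -0.07 in mutant cells, against -0.82 and -0.56 in WT cells, in the authors' deposited table. Hspe1 RD stood at 0.01 and -0.01 in mutant cells, against -0.71 and -0.67 in WT cells, in the authors' deposited table. In each the mutant RD fold was nearer to 0 than the WT fold. The same held for Calr and Pdia3, with mutant RD folds of -0.25 and -0.29 for Calr and -0.23 and -0.15 for Pdia3, against WT folds of -0.64 and -0.42 and of -0.64 and -0.43, in the authors' deposited table. It did not hold for all ER and mitochondrial members. Pdia5 RD stood at -0.29 and -0.47 in mutant cells, against -0.05 and 0.20 in WT cells, and Pdia6 RD at 48 hr at -0.26, against 0.02. Dnajb9 and Dnajc19 also had mutant RD folds farther from 0 than the WT folds at both times.

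GC content of the transcript moved with these genotype differences in all genes. Across 11991 or 11992 genes the Spearman correlation of GC content with the mutant fold minus the WT fold was 0.68 at 24 hr and 0.77 at 48 hr for mRNA, -0.05 and -0.08 for RPF, and -0.59 and -0.70 for RD. Across the 80 members with a GC value it was 0.77 and 0.80 for mRNA, -0.08 and -0.16 for RPF, and -0.54 and -0.67 for RD. The folds of a single genotype moved with GC content too. Over all genes the correlation at 24 hr and 48 hr was 0.11 and 0.29 for mutant mRNA and -0.28 and -0.33 for WT mRNA. For RD it was -0.16 and -0.51 in the mutant and 0.52 and 0.59 in WT. Genes of a column share the same libraries, so these are descriptions of the 2 sets of folds and not of independent points. The lumenal ER genes had a median GC content of 46.2% and the mitochondrial genes 46.8%, against 50.4% for all genes. Among the 22 members with a GC content at or under 45.7%, the lower quartile of all genes, the RD difference at 48 hr had a median of 0.50, and that of all 2998 genes in the class was 0.51. When the GC trend was subtracted, the RD difference of the lumenal ER genes had a median of 0.14 at 24 hr and -0.065 at 48 hr, and that of the mitochondrial genes 0.14 and 0.07. The HSP110 genes had 0.14 and 0.23, positive in 3 of 3 at each time, and the 7 TRiC genes with a GC value had -0.03 and -0.36, negative in 7 of 7 at 48 hr. After the same subtraction the RD differences at 24 hr and 48 hr were 0.69 and 0.62 for Hspe1 and 0.62 and 0.43 for P4hb, against 0.72 and 0.66 and 0.59 and 0.32 as deposited. They were 0.18 and 0.41 for Hsp90aa1 (0.46 and 0.93 as deposited), 0.24 and 0.24 for Hspa5 (0.53 and 0.69) and 0.33 and 0.07 for Hspa9 (0.57 and 0.49). For Calr they were 0.26 and -0.10 (0.39 and 0.14 as deposited) and for Pdia3 0.18 and -0.09 (0.41 and 0.27), which turned at 48 hr. The RD differences of the lumenal genes were thus no longer above 0 as a group at 48 hr, and what ties GC content to the folds was not tested.

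**Figure D4:**
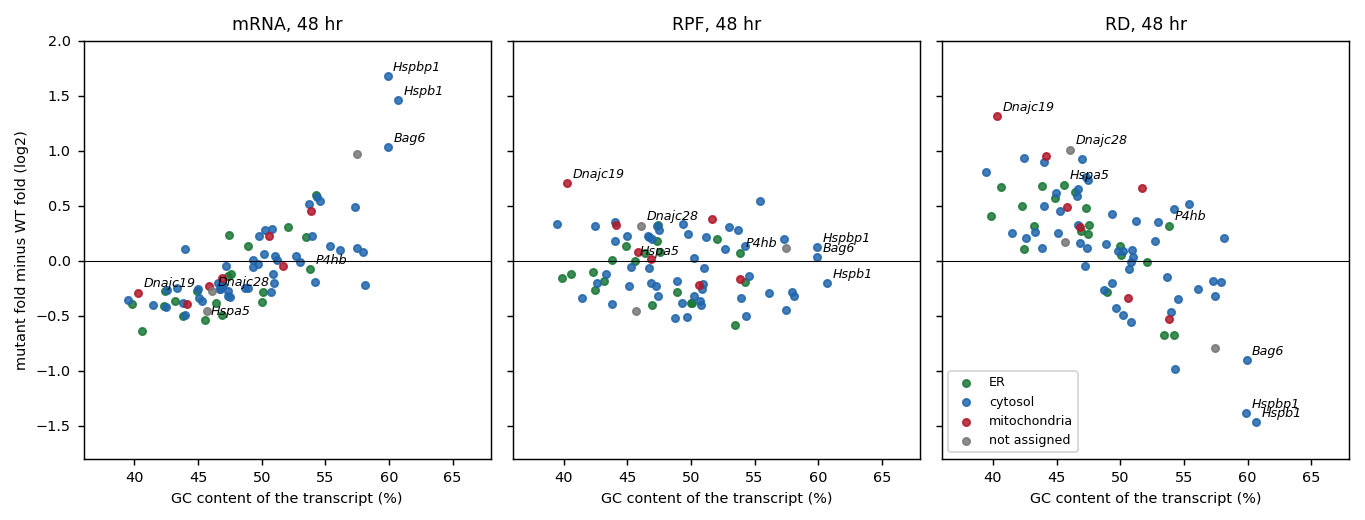
Mutant fold minus WT fold at 48 hr (vertical axis, log2) against GC content of the transcript (horizontal axis, percent) for 80 chaperone genes, in mRNA, RPF and RD panels, coloured by compartment. The mRNA difference is higher and the RD difference lower in GC-rich transcripts, and the RPF panel is flat. Hspb1 and Hspbp1 lie at the upper end of the mRNA panel and the lower end of the RD panel. Dnajc19 lies at the upper end of the RD panel.

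A mutant minus WT difference of 1 or more in size was found for 7 members. In mRNA there was none at 24 hr (1.95% of all genes) and 3 at 48 hr (8.09%), namely Hspbp1 at 1.68, Hspb1 at 1.46 and Bag6 at 1.03, each higher in the mutant and each with a GC content near 60%. With the GC trend subtracted these differences were 0.82 for Hspbp1, 0.44 for Hspb1 and 0.17 for Bag6. In RPF there was 1 at 24 hr (1.5% of all genes), Dnajb13 at -1.03, and none at 48 hr (1.82%). In RD there were 3 at 24 hr (4.38% of all genes), Dnajc28 at 1.47, Dnajc17 at -1.55 and Dnajb13 at -1.55. At 48 hr there were 4 (11%), Dnajc19 at 1.31, Dnajc28 at 1.01, Hspbp1 at -1.39 and Hspb1 at -1.47. With the GC trend subtracted the RD differences at 24 hr were 1.23 for Dnajc28, -1.43 for Dnajc17 and -1.65 for Dnajb13. At 48 hr they were 0.73 for Dnajc19, 0.59 for Dnajc28, -0.58 for Hspbp1 and -0.49 for Hspb1, all smaller in size than 1.

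Few genes of the table moved past the threshold between 24 hr and 48 hr, and the members were near that share. No member differed by 1 or more between 48 hr and 24 hr in mutant mRNA (1.42% of all genes), RPF (1.85%) or RD (1.13%). The median mutant difference of 48 hr minus 24 hr over the 81 members was -0.11 in mRNA, with 22 members above 0, and -0.08 in RPF, with 28 above 0. In WT cells it was -0.04 in mRNA and 0.05 in RPF, with 28 and 48 members above 0. The shares of all genes above 0 are not given here, so these counts do not set the members apart. Just under the threshold in the mutant stood Dnajb13 in mRNA at 24 hr, Hspb1 and Hspb7 in mRNA at 48 hr, P4hb in RPF at 24 hr and Dnajb13 in RPF at 48 hr, with the values given above.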

How the data were processed

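RNA-seq and Ribo-seq of 18 libraries underlie the deposited tables. Per the submitters' processing notes TopHat2, featureCounts and build mm10 were used, with no version; no source used here names the program that made the folds. Per the file headers the authors' table holds log2 folds of treated over untreated cells, 12 per gene. How RD was computed is not stated; across the 81 members the correlation (Pearson) of RD with RPF minus mRNA was 0.97 in both genotypes at both times. In a further deposited table the authors give a score per transcript, named IS and not spelled out, and a density signal of elongation reads, for mutant cells at 0 hr and 24 hr; the 2 WT columns beside them were left out.

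The symbol in the table was matched as typed. Of its symbols, 19 are numbers; 1 gene lacks folds in some mutant columns, and mutant RPF folds at 48 hr have 2 decimals. All 81 members had 12 folds. The member rule reads symbols and no values, but the rule and the lists were set with earlier results of these data known. Members past a log2 fold of 1 in mutant mRNA or RPF were named with values. So were the 3 highest and 3 lowest of each compartment in each mutant comparison, and those with a mutant minus WT difference of 1 or more. A core set of known chaperones and up to 4 of each other list were named too. Further members, and further genes of the ER list, were named after their values were seen. Medians, counts and differences of folds were computed with Python 3.11.15, pandas 2.3.3 and numpy 2.4.6, figures with matplotlib 3.10.9, and the computation was tested on simulated data. Coordinates and GC content, for the transcript of each gene with the longest coding region, came from GENCODE M21 on GRCm38, the assembly of mm10. The GC trend was the median fold within each of 20 GC bins holding equal numbers of genes. Depth per library is unknown and no test was run, since no replicate values were at hand. Alternatives were centring, RPF minus mRNA in place of RD, a threshold of 0.5, leaving out J proteins, repaired symbols and the GC trend.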

Additional observations from a re-analysis of the deposited data

How the results depend on the processing

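The folds are single pooled values, so error, depth and the effect of a batch could not be assessed. No paired analysis was possible because the table gives no value per library, and leaving out a replicate was not possible for the same reason. With a threshold of 0.5, 14 and 16 members were past it in mutant mRNA at 24 hr and 48 hr, 10 and 13 in RPF and 6 and 8 in RD, and 4 and 11, 5 and 5, and 19 and 28 in the mutant minus WT differences of mRNA, RPF and RD. Centring each column on its median made the count of mutant mRNA at 48 hr 3. Subtraction of the GC trend, chosen after seeing the data, made it 2 and left 0 mutant minus WT differences at 48 hr in mRNA and 0 in RD. It turned the mutant minus WT RD medians to 0.14 and -0.065 for ER lumen genes, 0.066 and -0.071 for all ER genes, -0.071 at 48 hr for cytosolic genes and 0.14 and 0.071 for mitochondrial genes, and the mutant RD median of ER genes at 48 hr to -0.083. With RPF minus mRNA in place of RD those genotype medians were 0.27 and 0.19 (ER lumen), 0.19 and 0.17 (ER), -0.000697 at 48 hr (cytosol) and 0.27 and 0.31 (mitochondria), and the mutant RD median of mitochondrial genes at 48 hr was -0.11. Without J proteins, ER genes had medians of 0.33 in mutant mRNA at 24 hr, -0.046 in mutant RD at 48 hr and 0.41 in the RD difference at 24 hr; mitochondrial genes had 0.40 and 0.27 in mutant mRNA and 0.57 in the RD difference at 24 hr. Repaired symbols, which exchange the 2 settings first planned because the member rule reads symbols as typed, changed no count or median beyond these limits. The cause of these changes was not tested.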

Other observations

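The table of IS values, a score per transcript that its file does not spell out, held 25 transcripts of the chaperone genes among 2332. By the density of elongation reads per transcript in that deposited table, the 5 highest of the 12 transcripts of ER genes, chosen after their values were seen, were Hsp90b1 at rank 12, Hspa5 15, Calr 17, P4hb 31 and Pdia3 39 of the 2332 transcripts. The 12 ran from 0.200 (Hspa13) to 6.62 (Hsp90b1) in density, and the median of all transcripts was 0.216. Between 24 hr of cytokines and 0 hr in mutant cells, the IS value was higher at 24 hr for 13 of the 25 transcripts (52%), lower for 11 and equal for 1, whereas it was higher for 770 of all 2332 (33.0%) and lower for 1470. No error is given with IS and no test was run.

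Hspa14, an HSP70 protein bound to ribosomes, is listed in the table under its Ensembl identifier ENSMUSG00000109865 with no usable symbol, and so lay outside the 81 genes. Its mRNA folds in the authors' deposited table were -0.15 and -0.31 in mutant cells, against -0.04 and -0.02 in WT cells, and its RPF folds were -0.33 and -0.29, against -0.27 and -0.15.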
